A study of Mus musculus and Rattus norvegicus with 28 samples.

Results

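The cytosolic ribosomal protein genes, which encode the proteins of the large (Rpl) and small (Rps) subunit of the ribosome, were followed in perinatal mouse cardiomyocytes and in cultured neonatal rat ventricular cardiomyocytes. Members were taken by name: Rpl or Rps followed by a number, at most 1 of the letters a, x, y or l and at most 1 further digit, plus Rpsa, Rplp0, Rplp1 and Rplp2. The Rps6 kinases, the named pseudogenes and ribosomal protein genes with longer names, such as Rpl36al, fall outside it. The name rule found 89 of 55450 genes in the mouse files, of which 83 reached an FPKM (fragments per kilobase of transcript, scaled to the mapped fragments of the library) of 5 in at least 2 libraries and were kept. In the rat files it found 93 of 32623 gene identifiers with 84 distinct symbols, and 89 identifiers with 80 symbols were kept. The 6 mouse genes not kept were Rpl3l, Rpl32l, Rpl39l and Rps3a2, which were low, and Rpl10l and Rps12l1, which were listed at 0 in all 8 libraries. In rat, Rpl3l, Rpl39l, Rpl30l1 and Rps10l1 were not kept.

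Left ventricles of wild-type C57BL/6 mice of both sexes were digested with trypsin and collagenase at embryonic day 18.5 (E18.5) and at postnatal days 1, 3 and 7 (P1, P3 and P7), and the cells were preplated to remove cells other than cardiomyocytes. RNA-seq and ATAC-seq, which maps open chromatin, were made from 2 libraries per age. The rat cells came from ventricles of Sprague Dawley pups at postnatal day 1 and received either the solvent DMSO or 100 nM trichostatin A (TSA), an inhibitor of histone deacetylases, with 3 RNA-seq libraries per treatment. The study used the mouse series to ask how the expression programme changes around birth. In the rat cultures it used TSA to control the activity of the transcription factor MEF2. The study calls its replicates biological, and which animals or cultures went into each library is not given in the sources used here, so p-values measure only the spread between libraries, which may be technical.

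A ribosome needs each of its proteins in about equal number, and their genes are among the most highly transcribed in growing cells. Their mRNAs begin with a terminal oligopyrimidine (TOP) tract, through which mTOR signalling controls their translation. Several members have a paralog, a closely related gene that can supply a variant of the same protein, and some of these are known for expression in muscle (Rpl3l) or testis (Rpl10l, Rpl39l).

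Markers of the labelled cell type fell steeply over the mouse series. The 16 cardiomyocyte markers summed to 6.37 to 7.91% of all transcripts (TPM, a length-adjusted share scaled to the same total in each library) at E18.5, 3.5 to 5.62% at P1, 1.97 to 2.34% at P3 and 0.274 to 0.614% at P7, and 16 of 16 were lower at P7 than at E18.5. The 12 fibroblast markers rose from 0.101 to 0.107% at E18.5 to 0.817 to 1.03% at P7, above the cardiomyocyte sum there, and 12 of 12 were higher. Of 8 tested erythroid markers 8 fell, from a sum of 5.47 to 6.42% at E18.5 to at most 0.00905% later. In both P7 libraries 3 of 9 erythroid markers found were at 0, and 14 of 16 cardiomyocyte markers, Tnnt2 among them, exceeded 1 FPKM in both P7 libraries. In these bulk samples fewer cells of a type and less RNA per cell cannot be told apart, and the part of this shift in the mouse results that follow was not tested. In rat, cardiomyocyte markers summed to 3.3 to 5.39% under DMSO and 2.81 to 7% under TSA, and fibroblast markers to 1.44 to 1.61% and 0.767 to 1.29%. Estimated depth was 29.3 to 37.5 M reads in the mouse and 28.2 to 38.5 M in the rat libraries.

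The ribosomal protein genes together took a growing part of the transcriptome with age. The 83 mouse members made up 8.17 and 8.39% of summed TPM in the E18.5 libraries, 10.4 and 9.01% (P1), 11.6 and 11.4% (P3) and lastly 12.9 and 13.7% (P7). The group means ± SD (n = 2) were 8.28 ± 0.157%, 9.70 ± 0.977%, 11.5 ± 0.182% and 13.3 ± 0.564%, and the libraries of successive ages did not overlap. With erythroid and cardiomyocyte markers taken out of the total, the P7 mean exceeded the E18.5 mean by 3.86 percentage points, against 5.05 points with them. In the rat cultures the members held 11.4, 11.7 and 10.9% under DMSO and 14.2, 14.2 and 13.1% under TSA, means of 11.3 ± 0.377% and 13.8 ± 0.657% (SD, n = 3). All 3 TSA libraries lay above all 3 DMSO libraries.

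**Figure D1:**
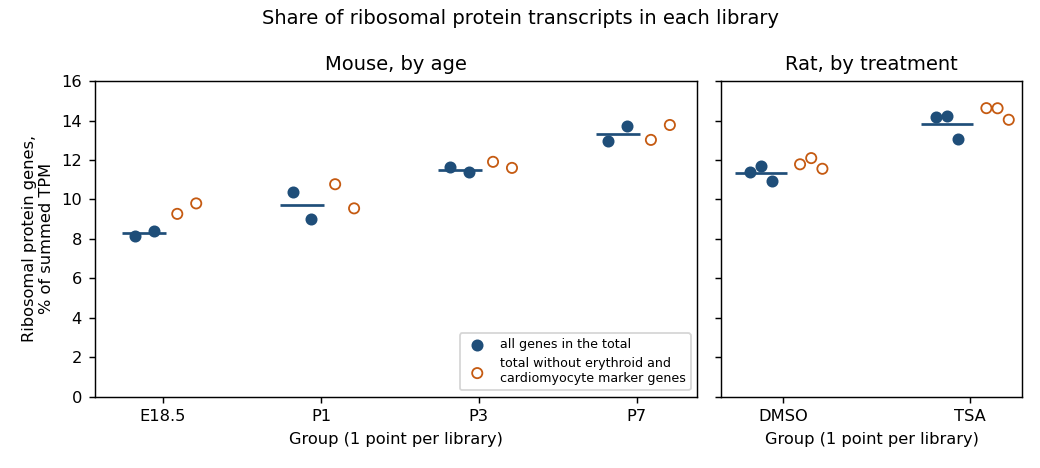
Share of ribosomal protein genes in each RNA-seq library, as % of summed TPM, by age in mouse (left) and by treatment in rat (right). Filled points are libraries, bars are group means and open points use a total without erythroid and cardiomyocyte marker genes; the mouse libraries run from 8.17% at E18.5 to 13.7% at P7 and the TSA libraries lie above the DMSO libraries.

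FPKM levels differed widely among members of what is a complex of near-equal parts. On the FPKM scale, which is per length, the 5 highest mouse members by mean over the 8 libraries were Rps2 (1733), the stalk proteins Rplp0 (1727) and Rplp1 (1624), Rpl13 (1455) and Rps6 (1297), the last being the protein phosphorylated by the Rps6 kinases. The lowest were Rpl6l (4.81), Rps3a3 (4.91), Rpl22l1 (53.7), Rpl7l1 (55.3) and Rps15a (81.2). The most abundant mouse Rps15a transcript is annotated with 5179 bases. Rat Rps15a, with 393 bases, stood at 996 FPKM, so annotated length enters these levels. Rpl6l and Rps3a3, which the annotation lists as processed pseudogenes, lie just inside the limit for members and reached it in 3 libraries each, and Rps3a2, just outside, reached it in the first P7 library with 5.49 FPKM. In rat, Rplp0 (1914), Rps18 (1808), Rpl41 (1709), Rplp1 (1620.3) and Rpl10 (1501) were highest. The lowest rat members were Rps29 (13.2), Rps4y2 (21.96), Rpl10l (28.4), an Rpl21 identifier (28.5) and Rpl9 (28.6). Each of these loci is as long as its only transcript and so holds no intron. The same held, among others, for rat Rpl35a, Rpl37, Rpl38, Rpl39 and Rps13, and for ENSRNOG00000052141 (Rps10) and ENSRNOG00000032605 (Rpl32). Whether their values stand for a spliced parent gene was not tested. Over 69 symbols with 1 gene in each species, log2 mean FPKM of mouse and rat correlated with Pearson's r = 0.56 across genes, which are not independent replicates.

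The question of the mouse comparisons was which members changed between the fetal heart and P7. In P7 against E18.5, 54 of 83 members rose (65.1%), where 32.6% of all 13979 genes tested rose, and 1 member fell, where 22.6% of all genes fell. All calls were made with limma on log2(FPKM + 1) over all genes, at a Benjamini-Hochberg adjusted p under 0.05. The median member was 0.43 higher on the log2 scale and the median gene 0.14 higher. Relative to the median gene the members stood 0.29 higher, and this was 0.30 on the TPM scale and 0.26 with median-of-ratios scaling. In 77 of 83 members (92.8%) both P7 libraries exceeded both E18.5 libraries, against 45.6% of all genes. The changes were small: 0 members passed the added limit of a log2 fold change of 1 in limma, against 27.7% of all genes, 1 passed it with limma-voom on estimated reads, 4 higher members with the most abundant transcript only and 8 on the TPM scale. An unadjusted p under 0.05 was found for 64 members, and for 60.4% of all genes. The large subunit (49 members, 33 called higher) and the small subunit (34 members, 21 called higher) had medians of 0.43 each.

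**Figure D2:**
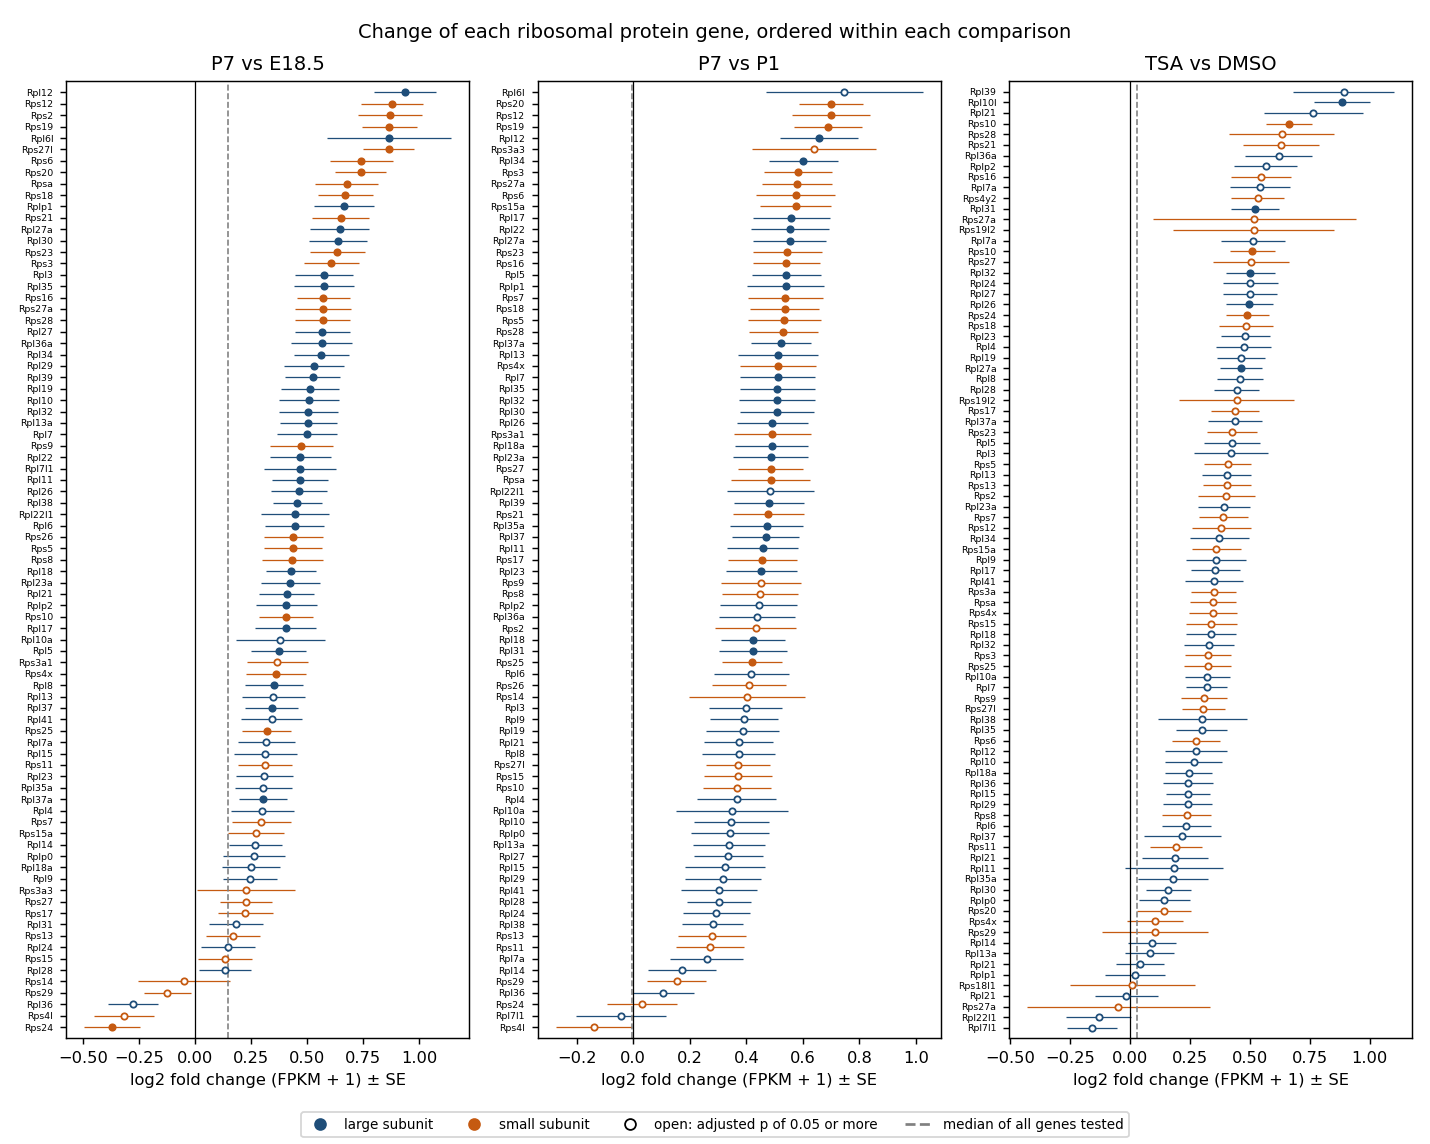
log2 fold change (FPKM + 1) ± SE of each kept member for P7 against E18.5, P7 against P1 and TSA against DMSO, ordered within each panel, with the large subunit in blue and the small subunit in orange. Filled points have a limma adjusted p under 0.05 and the dashed line is the median of all genes tested; most members lie to the right of that line, and Rps24 is lowest in the left panel.

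Rpl12, a large subunit protein next to the stalk, rose the most. It stood at 397 and 423 FPKM at E18.5, 555 and 446 (P1), 649 and 602 (P3) and lastly 756 and 814 (P7), a 1.91-fold rise to P7 (log2 0.94 ± 0.14 SE, limma adjusted p = 0.000739). The first P1 library stood above the second and the P3 and P7 libraries above both. Rps12, of the small subunit head, went from 685 and 692 FPKM at E18.5 through 871 and 698 at P1 and 994 and 960.5 at P3 to 1223 and 1310.5 at P7 (log2 0.88 ± 0.14, adjusted p = 0.001). Rps2, the most abundant member, had 1111 and 1286 FPKM at E18.5, 1767 and 1478 (P1), 1956 and 1899 (P3) and lastly 2179 and 2186 (P7) (log2 0.87 ± 0.14, adjusted p = 0.00124). Rps19, the gene best known for its loss in Diamond-Blackfan anaemia, rose from 235 and 242 FPKM to 433 and 439 at P7 (log2 0.87 ± 0.12, adjusted p = 0.00054). In all 4 the P7 libraries were the highest of the series. Rpl6l, near the FPKM limit, rose from 2.42 and 5.25 FPKM to 8.29 and 6.62 (log2 0.86 ± 0.28, adjusted p = 0.029), a value that was 0.43 without the first E18.5 library and 1.299 without the second. Its call was lost without the first E18.5 library or either P7 library, while Rpl12, Rps12, Rps2 and Rps19 were called whichever 1 library was left out.

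Among the genes of the stalk, which recruits translation factors, Rplp1 and Rplp2 were called and Rplp0 was not. Rplp0, its base, had 1556 and 1729 FPKM at E18.5 and 1988 and 1946 at P7 (log2 0.26 ± 0.14, limma adjusted p = 0.143). Rplp1, its partner, had 1229.6 and 1346 FPKM at E18.5 and 2001 and 2079 at P7 (log2 0.66 ± 0.14, adjusted p = 0.00376), and Rplp2 had 281 and 308 FPKM at E18.5 and 412 and 370.2 at P7 (log2 0.41 ± 0.14, adjusted p = 0.0338). The difference between the stalk genes was not tested. Rpsa, the laminin receptor and small subunit protein, rose from 795 and 901 FPKM to 1346 and 1359 (log2 0.68 ± 0.14, adjusted p = 0.00411).

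Few members had lower values at P7, and Rps24, of the small subunit, was the only one called. It stood at 963 and 1015 FPKM at E18.5, 788 and 710.5 (P1), 814 and 727 (P3) and lastly 754 and 774 (P7) (log2 -0.37 ± 0.12, limma adjusted p = 0.0329). The drop lay between E18.5 and P1, and the 3 postnatal ages overlapped. Rpl36 had 579 and 623 FPKM at E18.5 and 503 and 488 at P7 (log2 -0.28, adjusted p = 0.0631). Rps4l, the autosomal relative of Rps4x that the annotation lists as a transcribed processed pseudogene, had 110.1 and 119 FPKM at E18.5 and 101 and 83.1 at P7 (log2 -0.32, adjusted p = 0.0757). Rps29, whose protein sits beside the mRNA path, had 167 and 174 FPKM at E18.5 and 160.0 and 152 at P7 (log2 -0.12, adjusted p = 0.343), and on the TPM scale its sign turned (log2 0.14). Rps14, with 968 and 1049 FPKM at E18.5 and 925 and 1022 at P7 (log2 -0.05, adjusted p = 0.844), overlapped between the ages and completed the 5 members with a negative log2 fold change.

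The number of calls for P7 against E18.5 rested on the library set. It was 23 without the second P7 library, 30 without the first, 28 without the first E18.5 library and 20 with median-of-ratios scaling, but 77 on the TPM scale, while between 73 and 80 members had a positive log2 fold change under the 3 scalings. The fall of Rps24 was no longer called without any 1 of the E18.5, P3 or P7 libraries (limma adjusted p of 0.0573 to 0.141) or on the TPM scale (log2 -0.11, adjusted p = 0.41), and its direction turned on estimated reads, as given with its transcripts.

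Few members were called at the first postnatal age. At P1 against E18.5 3 of 83 members were called higher, where 26.9% of all genes were, and 2 lower, where 14.4% were, with a member median of -0.00 on the log2 scale against 0.15 for all genes. The 3 were Rps27l, a paralog of Rps27 (log2 0.49 ± 0.11, limma adjusted p = 0.0101), Rpl7l1, a relative of Rpl7 (log2 0.51 ± 0.16, adjusted p = 0.0347), and Rps2 (log2 0.43 ± 0.14, adjusted p = 0.0403). The 2 were Rpl36 (log2 -0.38 ± 0.11, adjusted p = 0.0251) and Rps24 (log2 -0.40 ± 0.12, adjusted p = 0.0317). The value of Rpl7l1 was 0.29 without the second E18.5 library (adjusted p = 0.136). So 2 of the 3 genes called higher at P1 were paralogs of another member. The next highest were Rpl12 (log2 0.28, adjusted p = 0.142) and Rpl27 (0.23, adjusted p = 0.163), and the other low values were those of Rps14 (log2 -0.45, adjusted p = 0.111), Rps3a3 (-0.41, adjusted p = 0.166) and Rps15a (-0.30, adjusted p = 0.0871). At P3 against E18.5 19 members were called higher, where 31% of all genes were, and 1 lower, where 17.9% were, with a median of 0.24 against 0.16. On the TPM scale the calls were 23 at P1 and 64 at P3, and with median-of-ratios scaling 0 and 2, so that the sign of the median member at P1 turned with the scaling (0.24 and -0.21). Relative to the median gene the members stood at -0.15 at P1 and 0.07 at P3, against -0.15 and 0.08 on the TPM scale and -0.19 and 0.04 with median-of-ratios scaling. At P1 the calls for higher members were 1 without E18.5 library 2, without either P3 library or without either P7 library, and 0 without P1 library 1. At P3 they were 4 and 5 without either P3 library, 5 and 8 without either E18.5 library and 12 without either P7 library.

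The comparison of P7 with P1 lies after the loss of erythroid transcripts. Of 83 members 43 rose (51.8%), where 8.2% of all genes rose, and the P7 libraries lay above the P1 libraries in 79 members, against 30.9% of all genes. The member median was 0.46 and that of all genes -0.00, and the gap between them was 0.46 on each of the 3 scalings. Rps20, of the small subunit head, went from 83.9 and 73.7 FPKM at P1 to 127 and 129.99 at P7 (log2 0.70 ± 0.11, limma adjusted p = 0.00445). Rps12 (log2 0.70 ± 0.14, adjusted p = 0.0104), Rps19 (log2 0.69 ± 0.12, adjusted p = 0.00638) and Rpl12 (log2 0.66 ± 0.14, adjusted p = 0.0138) were again among the largest. Rpl6l had a larger value with a wide error (log2 0.75 ± 0.28, adjusted p = 0.109). The lowest were Rps4l (log2 -0.14), Rpl7l1 (-0.04), Rps24 (0.03), Rpl36 (0.11) and Rps29 (0.15), and none of them was called. P1 library 2 held the lowest member share of the postnatal libraries: without it 3 members were called, without P1 library 1 64, without P7 library 1 4, without P7 library 2 1 and without either P3 library 17. Of the cardiomyocyte markers 16 of 16 were lower at P7 than at P1, and 11 of 12 fibroblast markers were higher.

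Rps24 changed its transcripts far more than its level. The gene lies at chr14:24487125-24496959 on the plus strand (mm10), and its annotated transcripts differ at the end of the coding region, where a short exon may be spliced in. The form with that exon, ENSMUST00000223999.1, held 76.2 and 77.5% of Rps24 FPKM at E18.5, 43.1 and 53.8% (P1), 38.2 and 34.5% (P3) and lastly 20.3 and 15.6% (P7). By FPKM it was the main form at E18.5 and fell below the summed other forms by P3. The exon is 18 bases long (chr14:24494052-24494069) and contains the stop codon of that form. It is shown in capitals between its 20 flanking intron bases, at chr14:24494032-24494089 on the plus strand of GRCm38.p6, because it carries the switch:
Rps24 short exon: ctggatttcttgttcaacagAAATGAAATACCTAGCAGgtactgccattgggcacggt

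The forms without the exon took its place. ENSMUST00000225023.1, which runs from the upstream coding exon into a last exon of 1185 bases, rose from 3.18 and 3.64% at E18.5 to 30.7 and 31.5% at P7. ENSMUST00000112384.9 rose from 3.12 and 3.54% to 21.7 and 22.4%, and ENSMUST00000169826.2 from 9.57 and 6.94% to 17.8 and 22.5%. None of these ranges overlapped between E18.5 and P7. The exon lines of the files gave the same order of ages. Summed coverage of the short exon, as a percent of that of the exon before it, was 37.5 and 39.96% at E18.5, 16.4 and 21.99% (P1), 13.4 and 12.4% (P3) and lastly 6.06 and 4.64% (P7). At E18.5 this percent lay far below the share of the form in Rps24 FPKM, so the size of its part differed between the measures. Coverage of the exon after it also fell, from 1668 and 2215 at E18.5 to 697 and 788 at P7. At E18.5 that was below the short exon itself (2132 and 2948). Both measures come from the authors' assignment of reads to annotated transcripts. FPKM is per length, and the forms differ in length from 468 to 1613 bases, so the fall of the Rps24 gene sum depended on the scale: on estimated reads with limma-voom its log2 fold change from E18.5 to P7 was 0.19. Cardiomyocyte markers fell in the same order of ages as the short exon, and their part was not tested.

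**Figure D3:**
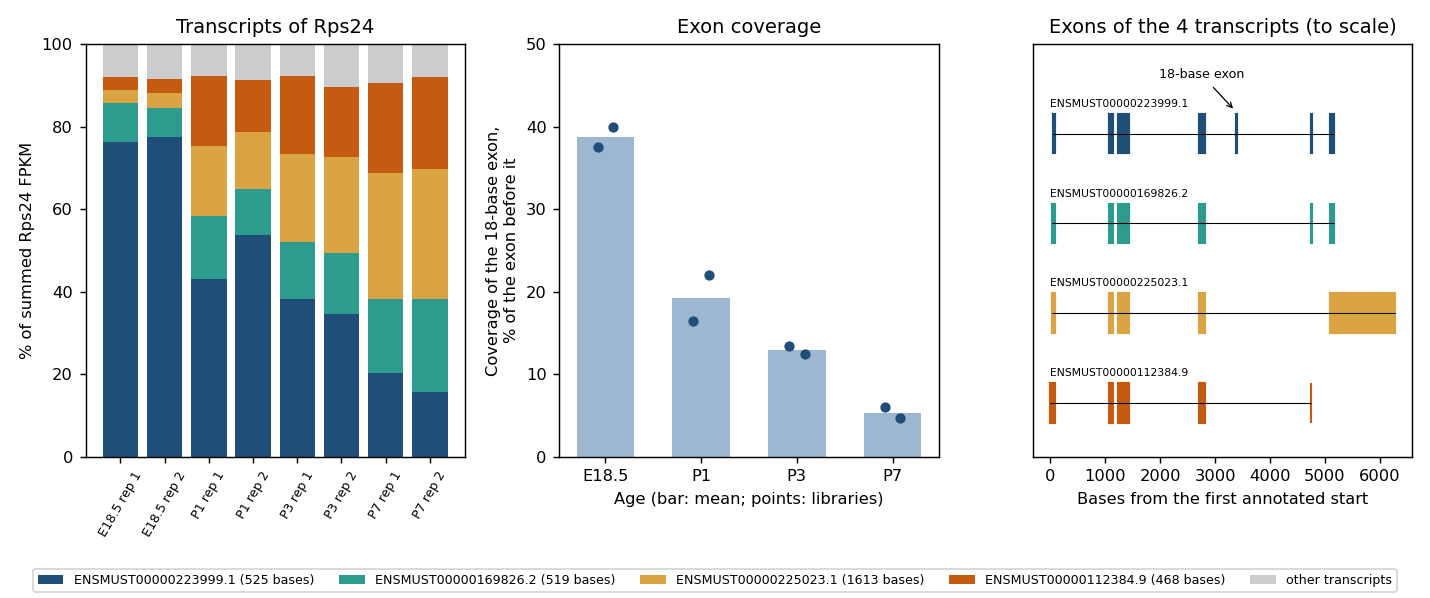
Rps24 in the 8 mouse libraries: share of each transcript in summed Rps24 FPKM (left), coverage of the 18-base exon as % of the exon before it, with bars for means and points for libraries (middle), and the exons of the 4 main transcripts to scale (right). The form with the short exon goes from 76.2 and 77.5% at E18.5 to 20.3 and 15.6% at P7.

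Transcript shares moved in a few other members. Of 120 mouse transcripts that held at least 10% of their gene in some library, 5 transcripts of 3 genes moved by over 20 percentage points between E18.5 and P7 without overlap (4.17%), against 10.2% of such transcripts over all genes with the same FPKM limit. Besides Rps24 these were Rpl10a, whose ENSMUST00000042334.15 rose from 35.3 and 31.4% to 53.4 and 53.5%, and Rpl22. For Rpl22, which binds RNA, ENSMUST00000188151.1 held 83.9 and 83.6% at E18.5 but 20.9 and 62.2% in the P7 libraries, so the size of its change was not fixed by 2 libraries. Among 100 such rat transcripts 0 moved by over 20 points without overlap between treatments, against 0.786% over all genes. In rat Rps24, ENSRNOT00000064788 held 99.9% in 5 of 6 libraries and 76.2% in the second TSA library. The 2 forms of rat Rpl3 that carry most of its reads alternated from library to library in both treatments, from 0 to 88.3% for ENSRNOT00000067032, so transcript shares of near-identical forms were not read further.

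Paralogs were set against their parent gene within each library, a ratio that no library scaling can move. Rps27l made up 25.1 and 23.5% of Rps27l plus Rps27 at E18.5 and 35.5 and 34.8% (P1), 34.0 and 36.1% (P3) and lastly 34.2 and 32.6% (P7), so all 6 postnatal libraries lay above both fetal libraries. In level, Rps27l rose from 121 and 116 FPKM at E18.5 to 177 and 158 at P1 and 213 and 221 at P7. Rps4l fell against Rps4x, from 11.6 and 11.6% at E18.5 and 11.3 and 11.6% at P1 to 9.58 and 10.3% at P3 and 8.58 and 6.68% at P7. Rpl36al against Rpl36a stood between 38.0 and 45.1% in every mouse library and was lowest at P7 (39.4 and 38.0%).

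Rpl3l, the striated muscle paralog of Rpl3, was a minor part at every age. It made up 0.476 and 0.653% of the pair at E18.5, 0.223 and 0.4% (P1), 0.147 and 0.161% (P3) and lastly 0.0326 and 0% (P7), where the second library lists it at 0. Its share fell in the same order as the cardiomyocyte markers. Rpl7l1 had 6.89 and 4.96% of the pair with Rpl7 at E18.5, 8.12 and 8.39% at P1, and 6.25 and 5.32% at P7, with 7.63 and 7.29% at P3 between them. In level Rpl7l1 stood at 63.2 and 54.8 FPKM at P1 and 58.5 and 55.6 at P7, while Rpl7 went from 715 and 598 FPKM at P1 to 877 and 990.1 at P7. Rpl22l1 held 30.8 to 43.7% of the pair with Rpl22 in all 8 libraries with overlapping ages, and Rpl39l at most 0.429% of the pair with Rpl39.

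**Figure D4:**
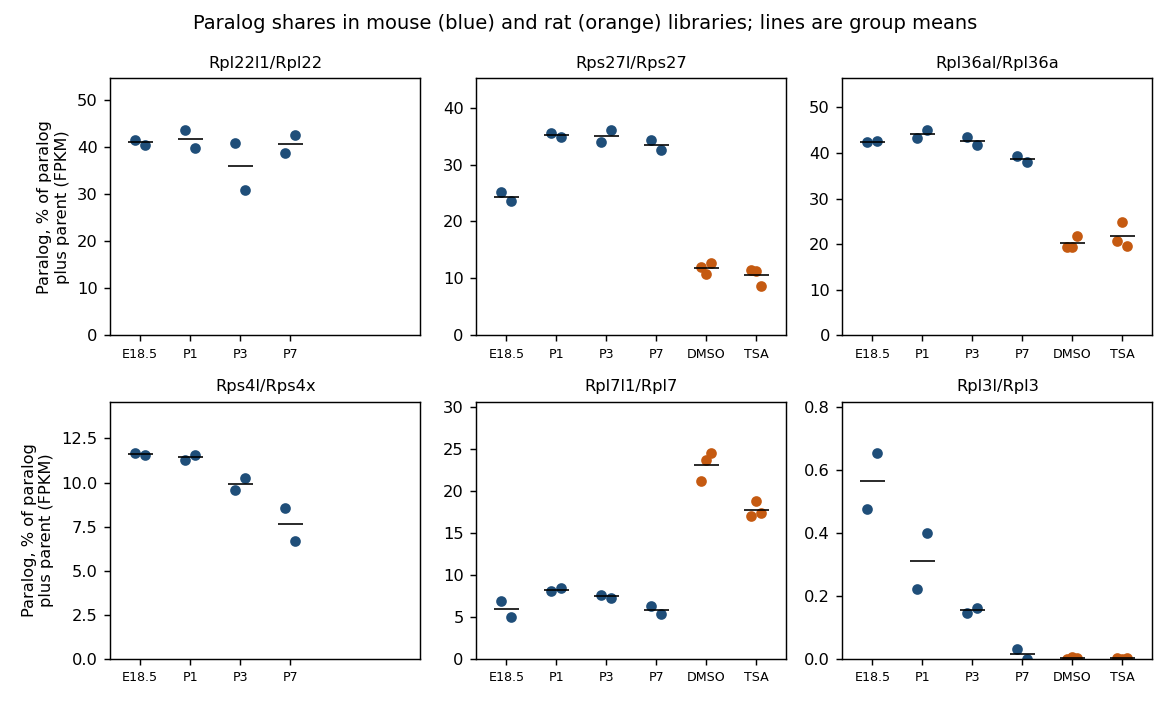
FPKM of 6 paralogs as % of paralog plus parent in each mouse (blue) and rat (orange) library, with bars for group means and an axis from 0 in each panel. Rps27l steps up between E18.5 and P1, while Rps4l and Rpl3l decline with age. The Rpl7l1 shares of rat and mouse are not comparable, as rat Rpl7 is annotated with 5151 bases.

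Under TSA most members stood higher in the rat cultures. In 68 of 89 members (76.4%) all 3 TSA libraries lay above all 3 DMSO libraries, against 17.1% of all 13625 genes tested. The test called 8 members higher (8.99%), where 3.19% of all genes were called higher, and 60 members had an unadjusted p under 0.05, all of them higher, as did 19.8% of all genes in either direction. The member median was 0.36 on the log2 scale against 0.03 for all genes, and the gap of 0.33 was the same on the 3 scalings. With the added limit of a log2 fold change of 1, limma called 0 members, against 2.13% of all genes, and limma-voom called 0. With 3 libraries against 3 an exact permutation test cannot go below p = 0.1.

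Both Rps10 genes, whose protein lies at the mRNA entry side of the small subunit, were among those called. The first (ENSRNOG00000000490) had 662, 620.0 and 618 FPKM under DMSO and 1022, 1020.3 and 973 under TSA (log2 0.67 ± 0.10, limma adjusted p = 0.0188). The second (ENSRNOG00000052141) had 65.0, 64.7 and 60.8 FPKM under DMSO and 92.0, 84.1 and 97.2 under TSA (log2 0.51 ± 0.09, adjusted p = 0.036). Reads can be shared between such copies, so their values are not independent. Rpl10l, a retrogene of Rpl10 known from testis, rose from 19.7, 17.1 and 22.3 FPKM to 37.9, 36.3 and 37.1 (log2 0.89 ± 0.12, adjusted p = 0.0145), and its part of the pair with Rpl10 went from 1.38, 1.17 and 1.77% to 2.22, 2.07 and 2.37%.

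Rpl31, a large subunit protein at the exit tunnel, had 377, 434 and 390.1 FPKM under DMSO and 569.8, 561 and 595 under TSA (log2 0.52 ± 0.10, limma adjusted p = 0.0399). Rpl26 had 876, 880.4 and 813 FPKM under DMSO and 1223, 1219 and 1189 under TSA (log2 0.50 ± 0.10, adjusted p = 0.0448). Rps24 had 425, 429 and 452 against 607, 616 and 613 FPKM (log2 0.49 ± 0.09, adjusted p = 0.036). Rpl27a had 431, 440.6 and 419 against 586, 599.7 and 594 (log2 0.46 ± 0.09, adjusted p = 0.0399). The last called was 1 of 2 Rpl32 identifiers (ENSRNOG00000032605, log2 0.50, adjusted p = 0.0488). In each of these genes the treatments did not overlap. That Rpl32 identifier had 34.7, 35.7 and 34.7 FPKM under DMSO and 55.5, 50.1 and 45.2 under TSA. Its locus, like those of Rpl10l and the second Rps10, holds no intron. The other Rpl32 identifier (ENSRNOG00000010746), at 972, 1061 and 971 against 1286, 1279 and 1213 FPKM, was not called. Rpl39 had a difference as large as that of Rpl10l, from 48.1, 76.7 and 77.8 to 105, 127 and 141 FPKM (log2 0.89 ± 0.21, adjusted p = 0.0699). Its rat locus holds no intron. An Rpl21 identifier (ENSRNOG00000000957) had 288, 464 and 489.7 FPKM under DMSO and 673, 671 and 716 under TSA (log2 0.77 ± 0.21, adjusted p = 0.0967). Rps28 had 218, 306 and 251 FPKM under DMSO and 375, 314 and 534 under TSA (log2 0.63 ± 0.22, adjusted p = 0.172), with 1 TSA library just above the highest DMSO library.

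The members with the lowest log2 fold changes under TSA were Rpl7l1 (-0.16), Rpl22l1 (-0.13), an Rps27a identifier (-0.05), an Rpl21 identifier (-0.01) and Rps18l1 (0.01), and their treatments overlapped. Rpl7l1 went from 21.2, 23.7 and 24.5% to 17.0, 18.8 and 17.3% of the pair with Rpl7, without overlap. Rat Rpl7 has a single annotated transcript of 5151 bases, and the most abundant mouse Rpl7 transcript has 784. FPKM is per length, so the rat and mouse shares are not comparable. Rplp1 had 1799, 1480.0 and 1550.2 FPKM under DMSO and 1698, 1669 and 1525 under TSA (log2 0.02 ± 0.13, limma adjusted p = 0.947). The 2 Rps27a identifiers moved in opposite directions in the third TSA library, at 495 and 818 FPKM against 1318 and 299 in the first. Whether they exchanged reads was not tested, and neither alone was taken as a measure of the gene.

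The rat libraries with the same number deviated together, and with that number as a block 4 of 89 members were called higher in place of 8. Of the 8, Rpl10l (limma adjusted p = 0.0267) and the first Rps10 (0.0351) kept the call with the block, and Rps24, the second Rps10, Rpl32, Rpl27a, Rpl31 and Rpl26 lost it, at adjusted p of 0.0523 to 0.0588. Rpl39 (0.0267) and 1 of 2 Rps19l2 identifiers (ENSRNOG00000037897, log2 0.52, adjusted p = 0.0489) were called with the block only. In library 1 of either treatment that identifier was at its lowest (299 and 408 FPKM) and the other at its highest (831 and 1177). Read sharing between them was not tested, and neither alone was a measure of the gene. The calls went to 0 without the first or second library of either treatment and to 13 without TSA library 3. Without both libraries numbered 3, a setting chosen after seeing the data, 55 members were called higher, where 12.1% of all genes were. In these settings 81 to 87 members had a positive log2 fold change. Across 69 symbols the mouse change from E18.5 to P7 and the rat change under TSA correlated with Pearson's r = 0.013 across genes.

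Reads of one member can fall on another, because many have retrocopies. Of the 83 mouse members, 70 shared at least 1 window of 150 bases, the read length used here, between their most abundant transcript and a transcript of another gene, and 18 shared over 50% of their windows, with Rps27 (98.0%) and Rpl10 (90.9%) at the top. Among the 13 members without a shared window 10 were called higher at P7 against E18.5, with a median of 0.47, and of the 70 with one 44 were called, with a median of 0.42. Rps27l and Rps4l shared no window, Rps24 shared 26.1%, Rps12 79.3% and Rpl12 44.4%. Neither length (Pearson's r = 0.15) nor mean level (r = -0.016) followed the change across the 83 members.

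Other genes of the translation machinery were taken from lists that hold no member. The first list held translation factors and other genes whose mRNAs carry a TOP tract. At P7 against E18.5 9 of 15 rose and 0 fell by limma, with a median of 0.42, among them Nap1l1 (log2 1.54), a histone chaperone, Npm1 (1.09), a nucleolar chaperone, the elongation factor subunits Eef1g (0.99) and Eef1b2 (0.84), and the ribosome-bound scaffold Rack1 (0.75). Of 22 ribosome biogenesis genes 6 rose, led by Wdr12 (log2 1.31) and Nhp2 (0.91), and Nop10 fell (-0.62), with a list median of 0.23 and beside 32.6% of all genes that rose. Of 14 regulators of ribosome synthesis 1 rose and 4 fell: Rptor, the mTOR complex scaffold, rose (log2 0.59), and Mycn (-1.70), Myc (-0.74), the translation repressor Eif4ebp1 (-0.50) and Mtor (-0.46) fell, beside 22.6% of all genes that fell. The elongation factor Eef1a2, which muscle uses, fell by 2.90 on the log2 scale at P7 against E18.5. It was not called at P1 (log2 -0.0002) or at P3 (-0.75). Cardiomyocyte markers had medians of -0.86 at P1, -1.93 at P3 and -4.26 at P7. Under TSA 2 of 13 translation factors rose, Rack1 (log2 0.61) and Eef1d (0.41), beside 3.19% of all genes that rose. The median of that list was 0.31. The 21 biogenesis genes tested in rat had a median of -0.02 and the 13 regulators of -0.09, and Mycn had a log2 value of 0.76 (adjusted p = 0.0546).

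**Figure D5:**
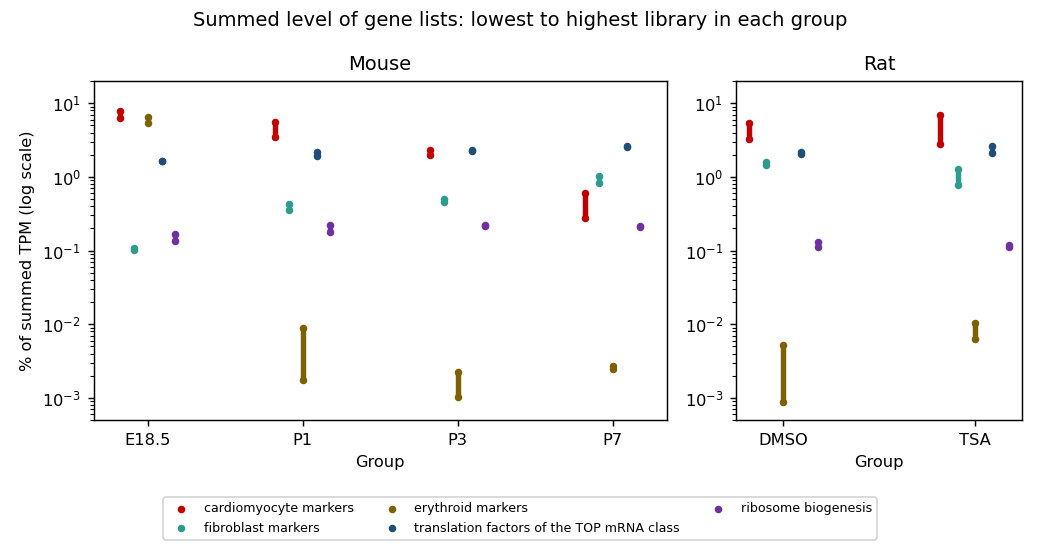
Summed level of gene lists as % of summed TPM, on a log axis, in mouse by age and in rat by treatment; each bar joins the lowest and the highest library of a group. TOP-class translation factors rise from 1.63 to 1.67% at E18.5 to 2.52 to 2.63% at P7, while cardiomyocyte and erythroid markers fall and fibroblast markers rise.

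Open chromatin at the members' promoters was scored from the ATAC-seq peak lists as a peak midpoint within 2.5 kb of an annotated start. Of 83 members 69 and 59 had such a peak at E18.5 (83.1 and 71.1%), 67 and 39 at P1 (80.7 and 47.0%), 81 and 80 at P3 (97.6 and 96.4%), and 78 and 79 at P7 (94.0 and 95.2%). Over all 9834 genes that passed the same FPKM limit the shares were 74.6 and 69.8%, 76.7 and 48.5%, 95.7 and 93.3%, and 92.3 and 91.9%, so the members followed the whole list in each library. The lists ran from 13149 to 95257 peaks. With the 13149 top peaks of each library the members with a peak numbered 69 and 56, 49 and 34, 29 and 49, and 39 and 62, and the increase with age was no longer there. A peak was present in all 8 libraries for 34 members, Rps12, Rps24 and Rps27l among them, in some for 48, Rpl12 with 5 among them, and in none for Rps3a3. These counts were not made over all genes. The median distance from peak midpoint to start was 42.0 to 89.0 bases, against 72.0 to 119.0 for the other genes. The median fold enrichment was 5.01 to 7.74, against 5.13 to 8.35, and was lower than that of the other genes in every library.

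Promoters were searched for 5 patterns named for transcription factors or for the mRNA start. RefSeq promoters on GRCm38.p6, from 250 bases before to 50 bases after the start, were found for 60 of 83 members. On both strands, the ETS core CCGGAA was in 34 of 60 (56.7%), against 16.7% of 27025 genes, the GC box GGGCGG in 38 (63.3%), against 38.2%, and AAGATGG, a core of YY1 sites, in 10 (16.7%), against 7.28%. TATAAA was in 7 (11.7%), against 15.7%. A run of at least 5 pyrimidines that begins with C within 5 bases of the start, as TOP mRNAs have, was in 29 (48.3%), against 21.2%. For P7 against E18.5 the median of members with and without the match was 0.46 and 0.37 for this run, 0.46 and 0.33 for the ETS core, 0.45 and 0.41 for the GC box, 0.38 and 0.45 for the YY1 core and 0.52 and 0.41 for TATAAA. A match of letters is no evidence of binding. The 27025 genes were not limited by FPKM as the members were, and 9834 mouse genes passed that limit. The excess was therefore not set against genes of like expression.

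The stretches from 40 bases before to 20 bases after the start are shown for the member that rose the most, the member with the largest transcript switch, and Rps27l, a paralog called higher at P1, with the pyrimidine run in capitals, and for Rps12, whose annotated start held none:
Rpl12, chr2:32961672-32961731, plus strand: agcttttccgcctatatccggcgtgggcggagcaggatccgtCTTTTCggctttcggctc
Rps24, chr14:24490638-24490697, plus strand: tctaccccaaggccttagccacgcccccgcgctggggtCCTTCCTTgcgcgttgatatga
Rps27l, chr9:66946046-66946105, plus strand: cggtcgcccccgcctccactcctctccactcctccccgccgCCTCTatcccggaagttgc
Rps12, chr10:23787190-23787249, minus strand: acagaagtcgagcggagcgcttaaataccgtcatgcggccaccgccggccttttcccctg
Rps24 and Rps27l each have a further start in the RefSeq table, where no run was found within the limit of 5 bases. A longer pyrimidine run lies upstream of that further Rps24 start. In it begin the first exons of ENSMUST00000223999.1 (24490730), ENSMUST00000169826.2 and ENSMUST00000225023.1 (both 24490718). The first exon of ENSMUST00000112384.9 (24490681) begins in the run in capitals. In Rpl12 the run in capitals has 6 bases and begins 2 bases after the annotated start. The Rps24 run in capitals has 8 bases and begins 2 bases before its start. In Rps12 a run of pyrimidines lies farther downstream than the limit of 5 bases.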

How the data were processed

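RNA-seq of 8 mouse and 6 rat libraries and ATAC-seq of 8 mouse libraries were used. The 6 HiChIP samples were not analysed here. Members and gene lists were chosen with earlier results of these data known, and the members named are the 5 largest changes in each direction of each comparison but P3 against E18.5, the 5 highest and lowest by mean FPKM, those next to the FPKM limit, each paralog pair, the stalk genes and Rpsa. Rpl31, Rpl26, Rpl27a, Rpl32, the second Rps10, Rps19l2 and rat Rps24 were named as the remaining calls, and Rpl10a, Rpl22 transcripts, Rps27 and Rpl10 shared windows for their values, all after these were seen.

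The authors aligned RNA-seq reads with HISAT2 2.1.0 to mm10 or rn6 and estimated known transcripts with StringTie 1.3.5 (mouse) or 1.3.4d (rat), per the file headers. The deposited files give FPKM, TPM and coverage per transcript, and read counts per gene are not used here. The authors' ATAC-seq peaks came from reads trimmed with cutadapt, aligned to mm10 with Bowtie2 and cleared of duplicates with Picard, with MACS2 calls per library and blacklisted regions removed, and the deposited columns hold its score, the fold enrichment over local background, and the −log10 of p and q. Peaks were placed by midpoint.

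Transcript FPKM was summed per gene. Testing covered every gene that reached 1 FPKM in 2 mouse or 3 rat libraries and used limma 3.58.1 (R 4.3.3) on log2(FPKM + 1), with trended empirical Bayes moderation, all libraries of a species in 1 fit, two-sided, and Benjamini-Hochberg adjustment over all genes. Since the study tested counts, this test differs from the authors'. Fold changes on this scale understate those of low genes. Depth and reads were estimated from coverage, length and 150-base reads. The fit was tested on simulated data. Alternatives were a pseudocount of 0.1, other filters, TPM, median-of-ratios scaling, limma-voom, the most abundant transcript, added pseudogene copies, fewer ages, a replicate block and leaving out each library. Summing rat identifiers of 1 symbol and leaving out both rat libraries numbered 3 were added after seeing the data. In rat, deviations from the group means of libraries with the same number in their titles correlated at r = 0.194 to 0.346 over all genes tested (3 pairs), so the numbers were taken to pair the libraries by data, not by a stated design. Strand was not used, so overlapping antisense reads cannot be told apart. Promoters were matched by symbol in Python 3.11.15. The list of ribosomal proteins outside the name rule is not reported here.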

Additional observations from a re-analysis of the deposited data

How the results depend on the processing

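Counts of members called rested on the library set and the scaling, and at P1 and P3 against E18.5 so did the directions: 41, 73 and 6 of 83 members were positive at P1 and 72, 80 and 44 at P3 as deposited, on the TPM scale and with median-of-ratios scaling. Counts of members called higher, lower and the median log2 fold change are given in that order for the age comparisons. For P1 against E18.5 they were 1 and 0 with no expression filter, 23, 0 and 0.24 on the TPM scale, and 0, 11 and -0.21 with median-of-ratios scaling. With only those ages in the fit 0 and 0 were called, and limma-voom called 1 lower. For P3 against E18.5 they were 8 and 0 with no filter, 64, 0 and 0.49 with TPM, and 2, 5 and 0.0195 with median-of-ratios scaling, and 0 were lower with limma-voom, with the block or with only those ages. For P7 against E18.5, 0 were lower with no filter, 77 were higher and 0 lower with a median of 0.70 with TPM, and 20 were higher and 4 lower with a median of 0.25 with median-of-ratios scaling. For P7 against P1, 6 were higher with no filter, 27 with the most abundant transcript only and 7 with only those ages. For TSA against DMSO, 2 were higher with no filter, with a mean FPKM of at least 5 or with TPM, 4 with median-of-ratios scaling, and 55 without both libraries numbered 3. The cause of these shifts was not tested, though a filter or fewer libraries changes how many genes or samples enter the fit.

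With the replicate block, 4 members were higher under TSA, where the numbers pair the libraries. The mouse numbers were not taken to pair the libraries (r of -0.0964 to 0.171 for 12 same-numbered pairs). With 2 libraries per age the deviations mirror each other. Each value therefore occurs in 2 same-numbered pairs, and its negative in the differently numbered ones. In mouse the block gave 2 members called higher at P1, 16 at P3, 49 at P7 and 30 at P7 against P1.

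Leaving out each library gave 0 to 4 higher and 0 to 3 lower at P1 (median -0.13 to 0.11), 4 to 28 and 0 to 1 at P3 (0.19 to 0.27), and 23 to 63 and 0 to 1 at P7 (0.38 to 0.47) against E18.5. It gave 1 to 64 higher at P7 against P1 (0.36 to 0.57) and 0 to 13 under TSA (0.33 to 0.39). The member share differed by 4.65 to 5.45 points between P7 and E18.5 and by 2.28 to 2.86 points between TSA and DMSO, and by 3.86 points between P7 and E18.5 without the marker genes.

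Rps24 turned direction with limma-voom at P7 (0.19) and P3 (0.0406) against E18.5, where reads are not divided by transcript length, and with its most abundant transcript at P7 against P1 (-1.40). Rpl22 turned direction at P7 against E18.5 with limma-voom (-0.0463) and with its most abundant transcript (-0.72). With that transcript alone the paralog part moved by -0.690 points for Rpl3l and 21.0 points for Rpl22l1 from E18.5 to P7, and by 32.9 points for rat Rpl3l, where the Rpl3 transcript compared was listed at 0 in TSA library 3. With an equal number of top peaks, 29 and 49 members had a promoter peak at P3 and 39 in the first P7 library. These were 34.9, 59.0 and 47.0% of the members, against 44.7, 58.4 and 54.0% of all genes. At a depth of 28.2 to 38.5 M reads, low genes that were not kept as members can rest on few reads. In the rat libraries Rpl3l had 0 to 2 estimated reads and Rpl39l had 14.7 to 39.7.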
